A study of Mus musculus with 78 samples.

Results

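The genes described here are Mbp, Pmp22, Cdh19, S100b, Sox10 and Ngfr, 6 of 7 listed genes of Schwann cells and peripheral myelin. Prx, the other listed gene, was not analysed here. Members were found as every probe set whose single symbol in the platform annotation is one of the listed genes, which gave 18 of the 45101 probe sets on the array. Of the 18, 15 passed a filter on low signal. Unless another probe set is named, each gene is represented by its brightest probe set, and all 6 genes are among the 14718 genes tested.

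Flank tissue came from female athymic nude mice of 4 to 6 weeks, which lack T cells made in a thymus. An adenovirus carrying VEGF-A164, a growth factor that drives new blood vessels, was given into flank skin and ears, and antibodies were given into the peritoneum. G6, dosed at 10 mpk, is counted in the labels among the anti-VEGF receptor antibodies with no target of its own, and DC101, dosed at 20 mpk, is a rat antibody to mouse VEGFR2. The 78 arrays were 8 each of G6 at days 5, 20 and 60, 8 of DC101 at days 5 and 20 with 6 at day 60, 8 of untreated tissue (virus without antibody) at each of the same days, and 8 of control tissue at day 0. Whether control flank skin had been given virus is not stated, the series holds no group given an empty virus, and the labels do not say whether a day counts treatment or time to harvest. The design text gives at least 5 animals a group without tying arrays to animals, so 1 animal may lie behind more than 1 array of a group, which would make the p-values too small.

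Schwann cells are the glia of peripheral nerves. They wrap large axons in myelin, a stack of membrane held together by proteins such as those from Mbp and Pmp22, or bundle small axons without myelin. The transcription factor SOX10 is needed to form and keep the lineage, S100B marks its mature cells, and after nerve injury the cells shut down myelin genes and turn on a repair programme in which Ngfr is a known member. In flank tissue they sit in the nerve bundles of skin and body wall muscle, beside perineurial cells and endoneurial fibroblasts.

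Levels are given as log2(signal + 16), and a difference of 1 unit is a doubling of signal plus 16. The trimmed mean of the deposited signals was 1500.01 on every array, and array medians lay between 454.85 and 582.58. Probe sets were ranked by mean level among the 34958 that carry 1 symbol. The brightest set of Mbp stood at the 99.3 percentile, that of Pmp22 at the 99 percentile, S100b at 74.5, Cdh19 at 69.9, Sox10 at 56.3 and Ngfr at 47.7. A panel of 16 skeletal muscle genes had a mean level of 15.25 to 16.57 over control arrays, so the flank pieces held muscle as well as skin. The ratio of 3′ to 5′ signal of Actb, a measure of RNA integrity that rises as RNA degrades, had a median of 2.22 in G6 arrays at day 60, 1.3 in DC101 arrays at day 60, 1.88 in untreated arrays at day 60 and 1.31 in control arrays. The same ratio of Gapdh had medians of 0.85, 0.82, 0.95 and 0.80 in these groups, and its highest group median was 1.24, in G6 arrays at day 5. The ratios thus ranked G6 and untreated arrays of day 60 in opposite order. G6 arrays 86 and 87 of day 60 stood apart, with muscle panels at 10.31 and 10.75 against 13.59 or more on the other 6. Calls of the members by brightest set that involve G6 tissue of day 60 are given with and without these arrays. Results of other probe sets, of averaged sets and of the gene lists in that tissue are given only with them. Lower signal from fewer Schwann cells and lower signal from less RNA in each cell cannot be told apart in bulk tissue.

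Promoter sequences are shown for S100b and Pmp22, members that moved together at day 5 and for which a RefSeq start was given. Pmp22 is known to be transcribed from alternative promoters, of which the upstream one is associated with myelinating Schwann cells. The start farthest upstream of 4 in the table is shown, the table does not say which promoter it is, and the single Pmp22 probe set does not separate the starts. Each run covers 250 bases before to 50 bases after the start on the plus strand of GRCm38.p6.
S100b, chr10:76253586-76253885: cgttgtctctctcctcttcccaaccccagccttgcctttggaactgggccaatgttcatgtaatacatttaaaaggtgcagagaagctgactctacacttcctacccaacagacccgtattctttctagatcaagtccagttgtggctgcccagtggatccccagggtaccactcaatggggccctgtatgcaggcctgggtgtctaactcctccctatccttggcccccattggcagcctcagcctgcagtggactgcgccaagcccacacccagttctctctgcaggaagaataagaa
Pmp22, chr11:63128732-63129031: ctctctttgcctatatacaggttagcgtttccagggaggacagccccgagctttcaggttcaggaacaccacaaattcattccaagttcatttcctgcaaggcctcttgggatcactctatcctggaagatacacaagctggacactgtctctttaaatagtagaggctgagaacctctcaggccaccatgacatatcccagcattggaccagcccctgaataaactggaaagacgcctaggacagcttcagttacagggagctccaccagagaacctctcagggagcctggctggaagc
Both were searched on both strands for ACAAAG and ACAATG, which are forms of the site that SOX proteins bind, and neither letter string was found in these windows. One or the other is present in 28.6% of 32851 RefSeq promoter windows of the same length. The match count says only which letters are in the window.

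Mbp, Pmp22, Cdh19, S100b and Sox10 were lower in untreated tissue at day 5 than in control tissue, while Ngfr did not pass the test. Over all genes, 52.8% were called at an adjusted p under 0.05 in this comparison and 24.9% were called lower, so 5 of 6 members lower stands beside a broad shift of the transcriptome. The median of the 6 differences was -0.97, against 0.05 over all genes tested. Groups did not overlap for Mbp and Cdh19, 2 of 6 members, against 25.7% of all genes.

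Mbp, which encodes the basic protein on the cytoplasmic face of the myelin membrane, ranged from 12.87 to 14.81 with a median of 13.36 in untreated tissue at day 5, against 14.97 to 15.92 with a median of 15.47 in control tissue. All 8 untreated arrays lay below the lowest control array, and Mbp fell by 1.85 (SE 0.43, limma adjusted p = 0.0002028), a 3.60-fold lower signal. Pmp22 encodes a tetraspan protein of compact myelin, and its gene dosage underlies inherited neuropathies. It ranged from 13.41 to 14.67 with a median of 13.86 in untreated tissue at day 5, against 14.17 to 15.12 with a median of 14.52 in control tissue. The groups overlapped, with 7 of 8 untreated arrays below the control mean, and Pmp22 fell by 0.68 (SE 0.24, adjusted p = 0.015553).

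Cdh19 encodes a cadherin, an adhesion protein, found in Schwann cell precursors and later stages of the lineage. It ranged from 8.72 to 9.85 with a median of 9.11 in untreated tissue at day 5, against 9.91 to 11.56 with a median of 10.72 in control tissue. Every untreated array was below every control array, and Cdh19 fell by 1.64 (SE 0.32, adjusted p = 1.366e-05), or 3.11-fold. S100b, which encodes a calcium-binding protein also found in adipocytes, melanocytes and some dendritic cells, ranged from 8.70 to 10.63 with a median of 9.57 in untreated tissue at day 5, against 10.02 to 11.64 with a median of 10.84 in control tissue. The ranges touched, all 8 untreated arrays were below the control mean, and S100b fell by 1.27 (SE 0.32, adjusted p = 0.00050904).

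The brightest probe set of Sox10 ranged from 9.26 to 9.88 with a median of 9.58 in untreated tissue at day 5, against 9.68 to 10.60 with a median of 10.18 in control tissue. Its groups overlapped at the edge, and it fell by 0.59 (SE 0.17, adjusted p = 0.0022224). Ngfr encodes the p75 neurotrophin receptor, present on repair and non-myelinating Schwann cells, sensory nerves and other cells of skin. It ranged from 9.0 to 10.04 with a median of 9.41 in untreated tissue at day 5, against 7.72 to 10.43 with a median of 9.42 in control tissue. The untreated arrays lay inside the control range, and the difference of 0.09 (SE 0.31, 95% interval -0.52 to 0.70, adjusted p = 0.82838) did not pass the test.

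**Figure D1:**
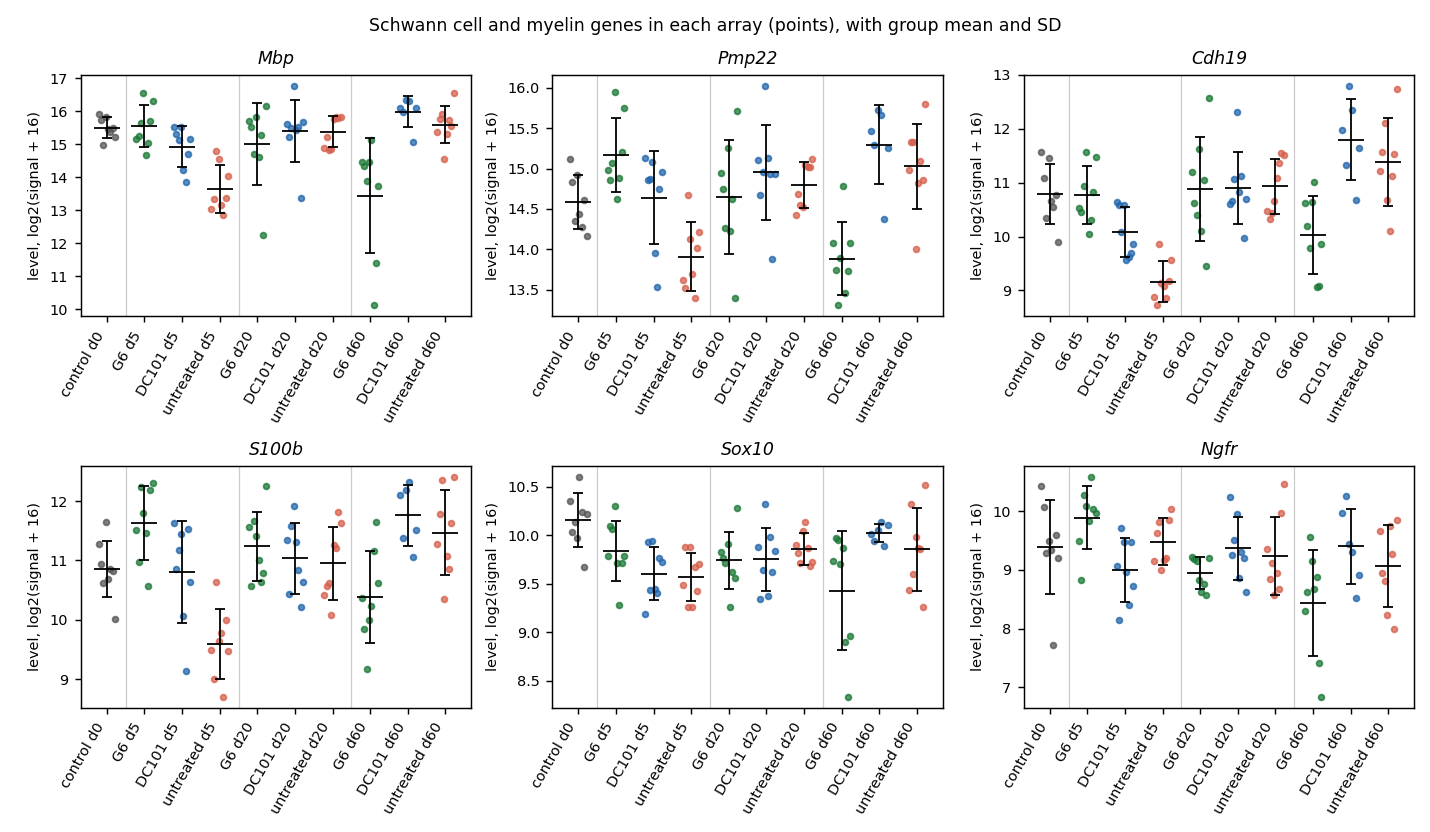
Level of each member, as log2(signal + 16), on every array in the 10 groups, with points for arrays and bars for the mean and SD of a group. In untreated tissue at day 5 the Mbp arrays lie between 12.87 and 14.81, below every control array, and in G6 tissue at day 60 they spread from 10.12 to 15.13.

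At day 20, 4 of the 5 genes were higher in untreated tissue than at day 5, and no member was called against control. Between these days 20.2% of all genes were called and 10.4% were called higher. Cdh19 had 10.33 to 11.55 with a median of 10.88 in untreated tissue at day 20, against 8.72 to 9.85 with a median of 9.11 at day 5. Its groups did not overlap, and the rise was 1.77 (SE 0.32, adjusted p = 2.5203e-05). Mbp had 14.83 to 15.83 with a median of 15.50 in untreated tissue at day 20, against a highest value of 14.81 at day 5. It was 1.73 higher (SE 0.43, adjusted p = 0.0020336), again without overlap, which made 2 of 6 members against 7.39% of all genes. S100b rose by 1.36 (SE 0.32, adjusted p = 0.00098001) and Pmp22 by 0.89 (SE 0.24, adjusted p = 0.0055682). The brightest Sox10 set differed by 0.29 (adjusted p = 0.22714) and Ngfr by -0.24, and neither was called. The other Sox10 set past the filter was called higher, at 1.88. With a gene's probe sets averaged, 5 members were called higher.

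Untreated tissue at day 20 had 0 of 6 members called against control, where 41.1% of all genes were called, with differences from -0.30 for Sox10 to 0.21 for Pmp22. For Sox10 all 8 untreated arrays lay below the control mean, and its other probe set past the filter was at -0.60, not called. At day 60 the count was again 0 of 6, against 35.6% of all genes, and the differences included 0.61 for S100b (adjusted p = 0.12685) and 0.59 for Cdh19 (adjusted p = 0.14666). With the 3′ to 5′ ratios of Actb and Gapdh as covariates, called RNA ratios from here on, 3 members were higher at day 60 than in control, S100b at 1.21 (adjusted p = 0.014878), Cdh19 at 1.05 (adjusted p = 0.040272) and Pmp22 at 0.88 (adjusted p = 0.018837). Untreated tissue at day 60 had no member called against day 20 either, where 25.7% of all genes were called, and S100b was called with RNA ratios (0.99, adjusted p = 0.029391). Over the time series Pmp22 averaged 14.59 ± 0.34 in control tissue at day 0 and, in untreated tissue, 13.91 ± 0.42 at day 5, 14.80 ± 0.28 at day 20 and 15.03 ± 0.52 at day 60 (SD, n = 8 each).

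G6 at day 5 was accompanied by higher S100b, Mbp, Cdh19 and Pmp22 than in untreated tissue of the same day, in 8 of 8 arrays for each. Over all genes 31.7% were called and 16.7% were called higher, against 4 of 6 members, and the members' median difference was 1.43 against 0.01 over all genes. Mbp ranged from 14.68 to 16.54 with a median of 15.46 in G6 tissue, against 12.87 to 14.81 with a median of 13.36 in untreated tissue. The groups overlapped at their edges, and the rise was 1.90 (SE 0.43, adjusted p = 0.00042536). Pmp22 ranged from 14.62 to 15.94 with a median of 15.02 in G6 tissue, against 13.41 to 14.67 with a median of 13.86 in untreated tissue. The groups overlapped narrowly, and Pmp22 rose by 1.25 (SE 0.24, adjusted p = 4.8322e-05).

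Cdh19 ranged from 10.06 to 11.57 with a median of 10.68 in G6 tissue at day 5, against 8.72 to 9.85 with a median of 9.11 in untreated tissue. It was the 1 member of 6 without overlap, against 12.1% of all genes, and rose by 1.61 (SE 0.32, adjusted p = 6.8316e-05). S100b ranged from 10.57 to 12.30 with a median of 11.66 in G6 tissue, against 8.70 to 10.63 with a median of 9.57 in untreated tissue. The lowest G6 array fell just inside the untreated range, and the difference passed the test (adjusted p = 6.7403e-07). The brightest Sox10 set differed by 0.27 (95% interval -0.06 to 0.60, adjusted p = 0.2184) and Ngfr by 0.41 (adjusted p = 0.32385), and neither passed.

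Against control tissue, G6 tissue at day 5 had S100b alone called, 0.77 higher (SE 0.32, adjusted p = 0.043449), where 41.2% of all genes were called and 22.2% were called higher. That call was lost when neighbouring array numbers were averaged in pairs and when a gene's probe sets were averaged. By its brightest set Mbp differed from control by 0.05, while its other sets disagreed in direction, as given below. Cdh19 differed by -0.03 and Pmp22 by 0.57 (adjusted p = 0.052301). DC101 tissue at day 5 had Sox10 alone called against control, at -0.55 (SE 0.17, adjusted p = 0.0047996), where 45.9% of all genes were called and 22.6% were called lower. The other Sox10 set past the filter was also called lower there, at -1.88. With RNA ratios as covariates Cdh19 was called lower as well (-0.81, adjusted p = 0.028198). G6 tissue at day 20 also had Sox10 alone called against control (-0.41, adjusted p = 0.046132), where 35% of all genes were called and 16.3% were called lower, a call that was lost with RNA ratios, with neighbouring arrays averaged and with probe sets averaged. DC101 tissue at day 20 had no member called, against 30.3% of all genes, though Pmp22 was called with RNA ratios (0.74, adjusted p = 0.034177) and Sox10 with probe sets averaged (-0.58, adjusted p = 0.046128). These comparisons share the control arrays.

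With DC101 at day 5, Mbp, S100b, Cdh19 and Pmp22 were higher than in untreated tissue, 4 of 6 members, against 11.8% of all genes called and 4.66% called higher. The comparisons of untreated tissue at day 5 with control, G6 and DC101 tissue all use its same 8 arrays. The Actb ratio had a median of 1.76 in G6 tissue, 1.29 in DC101 tissue and 1.62 in untreated tissue at day 5. The members' median difference was 0.83, against -0.02 over all genes, and no member's groups were free of overlap, against 3.49% of all genes. Mbp ranged from 13.86 to 15.52 with a median of 15.13 in DC101 tissue, against 12.87 to 14.81 with a median of 13.36 in untreated tissue. The groups overlapped, all 8 DC101 arrays were above the untreated mean, and the rise was 1.27 (SE 0.43, adjusted p = 0.03992). S100b ranged from 9.14 to 11.63 with a median of 11.01 in DC101 tissue, against 8.70 to 10.63 with a median of 9.57 in untreated tissue. Its ranges overlapped widely, 7 of 8 DC101 arrays were above the untreated mean, and the rise was 1.22 (SE 0.32, adjusted p = 0.0063149).

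Cdh19 rose by 0.92 (SE 0.32, adjusted p = 0.047939, 8 of 8 arrays) and Pmp22 by 0.73 (SE 0.24, adjusted p = 0.037568, 7 of 8 arrays) with DC101 at day 5. Cdh19 averaged 10.08 ± 0.46 in DC101 tissue and 9.16 ± 0.38 in untreated tissue (SD, n = 8 each), and Pmp22 averaged 14.64 ± 0.58 in DC101 tissue and 13.91 ± 0.42 in untreated tissue (SD, n = 8 each). S100b was called in all 16 fits that left out 1 array, with adjusted p from 0.00070374 to 0.022855, and the count of members called was 1 or 2 without DC101 array 17, 18, 19, 20, 23 or 24 or untreated array 1, 2, 5, 6 or 7. With RNA ratios as covariates the count was 1, Mbp, and with neighbouring arrays averaged it was 1, S100b. The Sox10 set differed by 0.03 (adjusted p = 0.92864) and Ngfr by -0.49 (adjusted p = 0.31269).

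The antibodies differed from each other at day 5 in 1 member of 6, against 11.5% of all genes called and 5.82% called higher with G6. Ngfr was 0.90 higher in G6 than in DC101 tissue (SE 0.31, adjusted p = 0.042985), with 8.84 to 10.59 and a median of 10.01 in G6 tissue, against 8.15 to 9.72 and a median of 9.01 in DC101 tissue. Most G6 arrays, 7 of 8, lay above the DC101 mean, though the groups overlapped and the call was lost with RNA ratios as covariates (adjusted p = 0.37686) and with neighbouring arrays averaged (adjusted p = 0.16832). With RNA ratios S100b was called in its place (1.29, adjusted p = 0.01924). When probe sets were averaged 3 members were higher, Sox10 at 0.90 (adjusted p = 0.005094), Ngfr at 0.90 (adjusted p = 0.044654) and S100b at 0.87 (adjusted p = 0.034776). By its brightest set S100b differed by 0.82 (95% interval 0.19 to 1.46, adjusted p = 0.07755), Cdh19 by 0.69 (adjusted p = 0.16047) and Mbp by 0.62 (adjusted p = 0.38148).

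At day 20 neither antibody had a member called against untreated tissue. The counts were 0 of 6 for G6, against 9.98% of all genes, and 0 of 6 for DC101, against 7.69% of all genes. Mbp had 12.25 to 16.17 with a median of 15.40 in G6 tissue and 13.38 to 16.78 with a median of 15.52 in DC101 tissue, against 14.83 to 15.83 with a median of 15.50 in untreated tissue. Both antibody groups spread wider than untreated tissue, and the G6 difference in Mbp was -0.37 with a 95% interval of -1.23 to 0.49. G6 and DC101 tissue of day 20 also had no member called against each other, where 0.245% of all genes were called. Ngfr was lower with G6 at day 20 than with G6 at day 5 (-0.95, SE 0.31, adjusted p = 0.02277), the 1 member of 6 called where 16.9% of all genes were called and 8.79% called lower, and the call was lost with RNA ratios as covariates (adjusted p = 0.72235).

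The G6 effect at day 20 minus that at day 5 was tested as an interaction. It was called negative in 4 of 6 members, against 9.17% of all genes called and 5.1% called lower. Ngfr at -0.71 and the brightest Sox10 set at -0.39 were not called. The other Sox10 set was called at -2.24, and with probe sets averaged 5 members were called. The called values are by brightest set. They were -2.27 for Mbp (SE 0.61, adjusted p = 0.012835), -1.76 for S100b (SE 0.45, adjusted p = 0.0087114), -1.66 for Cdh19 (SE 0.45, adjusted p = 0.014251) and -1.40 for Pmp22 (SE 0.35, adjusted p = 0.006556). Untreated tissue of day 5, where these genes were low, is part of the contrast. With RNA ratios as covariates the Mbp value was -1.68 (adjusted p = 0.057579), and with neighbouring arrays averaged the S100b call was lost (adjusted p = 0.060737). For DC101 the same contrast had no member called, against 1.81% of all genes, with Mbp at -1.27 (adjusted p = 0.28914) and S100b at -1.14 (adjusted p = 0.18604). Between days 60 and 20 no member was called for the effect of G6, against 0.0747% of all genes, or of DC101, against 18.2%.

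**Figure D2:**
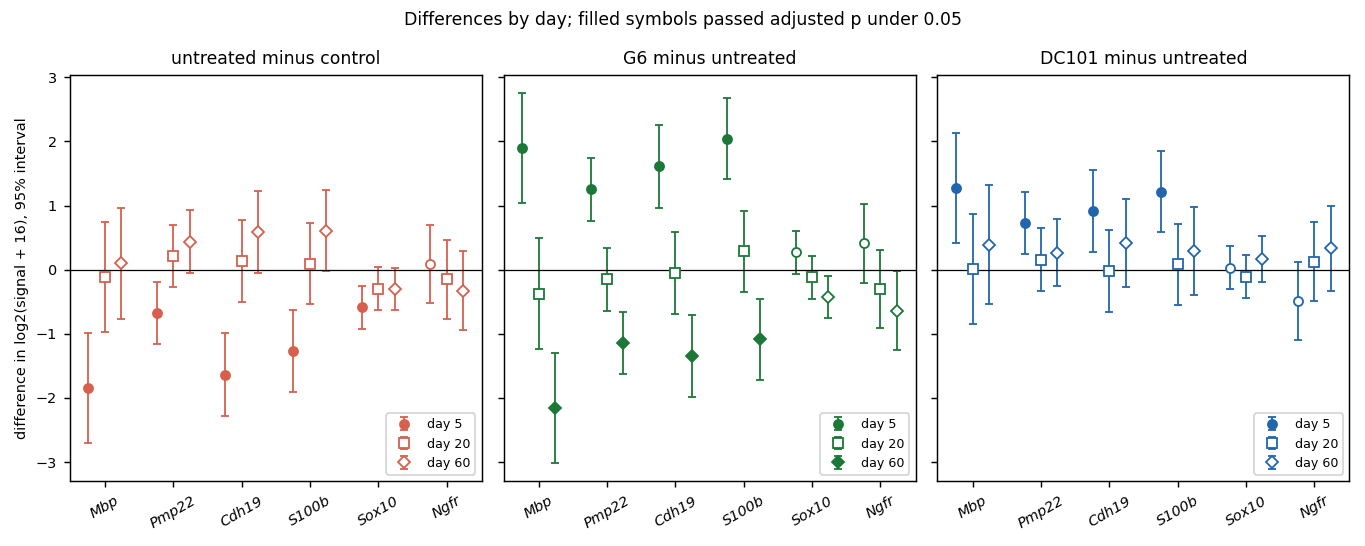
Difference in log2(signal + 16) of each member at days 5, 20 and 60, in panels for untreated minus control, G6 minus untreated and DC101 minus untreated, with 95% intervals and filled points where the adjusted p is under 0.05. Mbp stands at 1.90 with G6 at day 5 and at -2.15 with G6 at day 60.

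At day 60, Mbp, Cdh19, Pmp22 and S100b were lower with G6 than in untreated tissue. The count was 4 of 6 members, against 11.9% of all genes called and 9.26% called lower, and the members' median was -1.11 against -0.02 over all genes. Mbp ranged from 10.12 to 15.13 with a median of 14.11 in G6 tissue, against 14.55 to 16.54 with a median of 15.65 in untreated tissue. The groups overlapped, all 8 G6 arrays were below the untreated mean, and Mbp fell by 2.15 (SE 0.43, adjusted p = 0.00053883), or 4.44-fold. Arrays 86 and 87 held the lowest Mbp values, 10.12 and 11.40, and without them the difference was -1.26 (adjusted p = 0.025104).

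Pmp22 ranged from 13.31 to 14.78 with a median of 13.82 in G6 tissue at day 60, against 14.01 to 15.80 with a median of 15.03 in untreated tissue. The ranges overlapped in part, and Pmp22 fell by 1.14 (SE 0.24, adjusted p = 0.0011535). Cdh19 ranged from 9.06 to 11.01 with a median of 10.03 in G6 tissue, against 10.10 to 12.74 with a median of 11.38 in untreated tissue, and fell by 1.35 (SE 0.32, adjusted p = 0.0030847). S100b ranged from 9.17 to 11.65 with a median of 10.30 in G6 tissue, against 10.36 to 12.41 with a median of 11.45 in untreated tissue. It fell by 1.09 (SE 0.32, adjusted p = 0.016139), with 7 of 8 G6 arrays below the untreated mean. No member's groups were free of overlap, against 0.258% of all genes.

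Without arrays 86 and 87 the 4 genes were still called, with Pmp22 at -1.04 (adjusted p = 0.0095091), S100b at -1.43 (adjusted p = 0.0042127) and Cdh19 at -1.03 (adjusted p = 0.044411). With RNA ratios as covariates 0 of 6 members were called, Mbp being -1.21 (adjusted p = 0.19828), and 27 of 14718 genes were called over the array in place of 1751. A fit to these groups alone called 1 member, and with neighbouring arrays averaged the S100b call was lost (adjusted p = 0.079521). The Actb ratio ran from 1.81 to 3.03 in G6 tissue and from 1.58 to 2.57 in untreated tissue at day 60, and its part in the lower signals was not tested. Sox10 differed by -0.43 (adjusted p = 0.081423) and Ngfr by -0.64 (adjusted p = 0.16773), where 5 of 8 G6 arrays had Ngfr above the filter's level of 331.

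G6 tissue at day 60 was also lower than DC101 tissue of that day in 6 of 6 members, against 40.5% of all genes called and 21.9% called lower. Mbp differed by -2.54 (SE 0.47, adjusted p = 1.8275e-05), with 10.12 to 15.13 and a median of 14.11 in G6 tissue, against 15.06 to 16.33 and a median of 16.09 in DC101 tissue. Ngfr ranged from 6.84 to 9.56 with a median of 8.65 in G6 tissue, against 8.53 to 10.25 with a median of 9.38 in DC101 tissue, and differed by -0.97 (SE 0.33, adjusted p = 0.014972). Without arrays 86 and 87 the Mbp difference was -1.64, 5 members were called, and Sox10 was not (-0.32, adjusted p = 0.1276). RNA ratios as covariates left 0 of 6 called, and with neighbouring arrays averaged the Ngfr call was lost (adjusted p = 0.07261).

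Set against control, G6 tissue at day 60 had 5 members lower, against 48.7% of all genes called and 24.9% called lower. They were Mbp at -2.05, Ngfr at -0.96, Cdh19 at -0.76, Sox10 at -0.73 and Pmp22 at -0.70, while S100b was at -0.48 (adjusted p = 0.21171). With RNA ratios as covariates none of the 5 was called, and without arrays 86 and 87 the called genes were Mbp, Ngfr, S100b and Sox10. Set against G6 tissue of day 20, 4 members were lower at day 60, against 20.9% of all genes called and 14.2% called lower, with Mbp at -1.57 (adjusted p = 0.0054832). Without arrays 86 and 87 that count was 1, S100b at -1.20, with RNA ratios it was 0, and with neighbouring arrays averaged it was 2, Mbp and Pmp22.

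DC101 tissue at day 60 had no member called against untreated tissue, where 11.6% of all genes were called. By brightest set Cdh19 was at 0.42 and Mbp at 0.39, and the other Mbp sets are given below. Between successive days with DC101 no member was called by brightest set either, against 20.8% of all genes for day 20 against day 5 and 9.38% for day 60 against day 20. Day 20 against day 5 had 3 members higher with RNA ratios as covariates, Mbp at 1.38 (adjusted p = 0.018), Cdh19 at 1.32 (adjusted p = 0.0043309) and Pmp22 at 0.77 (adjusted p = 0.026391), and Sox10 higher with probe sets averaged (0.63, adjusted p = 0.040562). Against control tissue 3 members were higher, where 22.2% of all genes were called and 11.5% were called higher. Cdh19 ranged from 10.69 to 12.80 with a median of 11.81 in DC101 tissue, against 9.91 to 11.56 with a median of 10.72 in control tissue, and was 1.0 higher (SE 0.35, adjusted p = 0.029128). S100b was 0.90 higher (SE 0.34, adjusted p = 0.048434) and Pmp22 0.71 higher (SE 0.26, adjusted p = 0.044861). When neighbouring arrays were averaged, none of the 3 was called, the adjusted p being 0.057586 for Cdh19, 0.12767 for S100b and 0.077444 for Pmp22, and with a gene's probe sets averaged S100b was not called (adjusted p = 0.071872).

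The levels fell into an order of groups that differed by gene. For Mbp the means ran from DC101 at day 60 (15.98 ± 0.47, SD, n = 6) down to DC101 at day 5 (14.92 ± 0.61, SD, n = 8) with no step between neighbours beyond their larger SD. A step of 1.27 then led to untreated tissue at day 5 (13.65 ± 0.73, SD, n = 8), followed by G6 at day 60 (13.44 ± 1.74, SD, n = 8). Pmp22 had its single such step, 0.68, above the same last pair of groups. Cdh19 had steps above DC101 at day 5 and above untreated tissue at day 5, of 0.69 and 0.87, and S100b had 1 step of 0.79 above untreated tissue at day 5, which was lowest of the 10 groups for both genes. For Sox10 and Ngfr no neighbouring groups differed beyond their SD.

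The probe sets of Sox10 gave differences of unequal size. Its other probe set past the filter, 1451689_a_at, ranged from 7.22 to 9.04 with a median of 8.41 in untreated tissue at day 5, against 9.31 to 11.39 with a median of 10.79 in control tissue. It fell by 2.48 with no overlap (adjusted p = 1.0334e-08 over all probe sets past the filter), where the brightest set fell by 0.59. In G6 tissue at day 5 it ranged from 9.40 to 11.01 with a median of 10.33, against the same untreated values, and rose by 2.17 with no overlap (adjusted p = 1.4574e-06), where the brightest set was not called. This set had 6.34 to 9.36 with a median of 8.16 in G6 tissue at day 60, against 9.56 to 11.18 with a median of 9.99 in untreated tissue, and fell by 1.94 with no overlap (adjusted p = 0.00020619).

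Both low groups of this Sox10 set were dim: 4 of 8 arrays in each were above 331. The difference of DC101 from untreated tissue at day 5 was 0.60 and was not called. Across the 78 arrays the pair of Sox10 sets correlated with r = 0.657, and when they were averaged Sox10 rose by 1.22 with G6 at day 5 (adjusted p = 2.883e-05) and fell by 1.18 with G6 at day 60 (adjusted p = 0.00040504). Which Sox10 transcripts each set reads is not given in the sources used here.

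Of 8 Mbp probe sets, 7 were lower in untreated tissue at day 5 than in control tissue, with differences from -2.52 to -0.32 over the 8. Against untreated tissue, 7 of 8 were higher with G6 at day 5, from 0.81 to 3.08, and with G6 at day 60, 6 of 8 were lower, from -2.73 to 0.09. With DC101 at day 5, 2 of 8 were higher, from 0.35 to 1.61. In DC101 tissue at day 60, 0 of 8 were called against untreated tissue, from 0.39 to 1.05. Against control tissue 1 of 8 was called higher there, from 0.48 to 1.14, and against DC101 tissue of day 20, 2 of 8, from 0.55 to 1.13. In G6 tissue at day 5 against control tissue, 1 of 8 was called higher and 1 called lower, from -1.02 to 0.64. The sets that stood apart with G6 at day 60 against untreated tissue were 1425263_a_at at 0.09 and 1425264_s_at at -0.07. Both were called higher with G6 at day 5, at 1.12 and 0.96. Over the arrays the other 6 Mbp sets correlated among themselves with r of 0.847 to 0.99, and with 1425263_a_at they had r of 0.14 to 0.25. The Mbp locus is known to make longer Golli transcripts, found outside myelin too, and the sources used here do not say which transcripts each set reads.

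Both S100b sets were lower in untreated tissue at day 5 (-1.27 and -1.15) and higher with G6 at day 5 (2.04 and 1.67), with r = 0.918 between them. With DC101 at day 5 the dimmer S100b set was at 0.76 and missed the threshold (adjusted p = 0.05057). The 2 Ngfr sets and the Sox10 set that failed the filter were above 331 on 0, 0 and 3 arrays of 78, and are not described further. Pmp22 and Cdh19 each had 1 probe set.

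**Figure D3:**
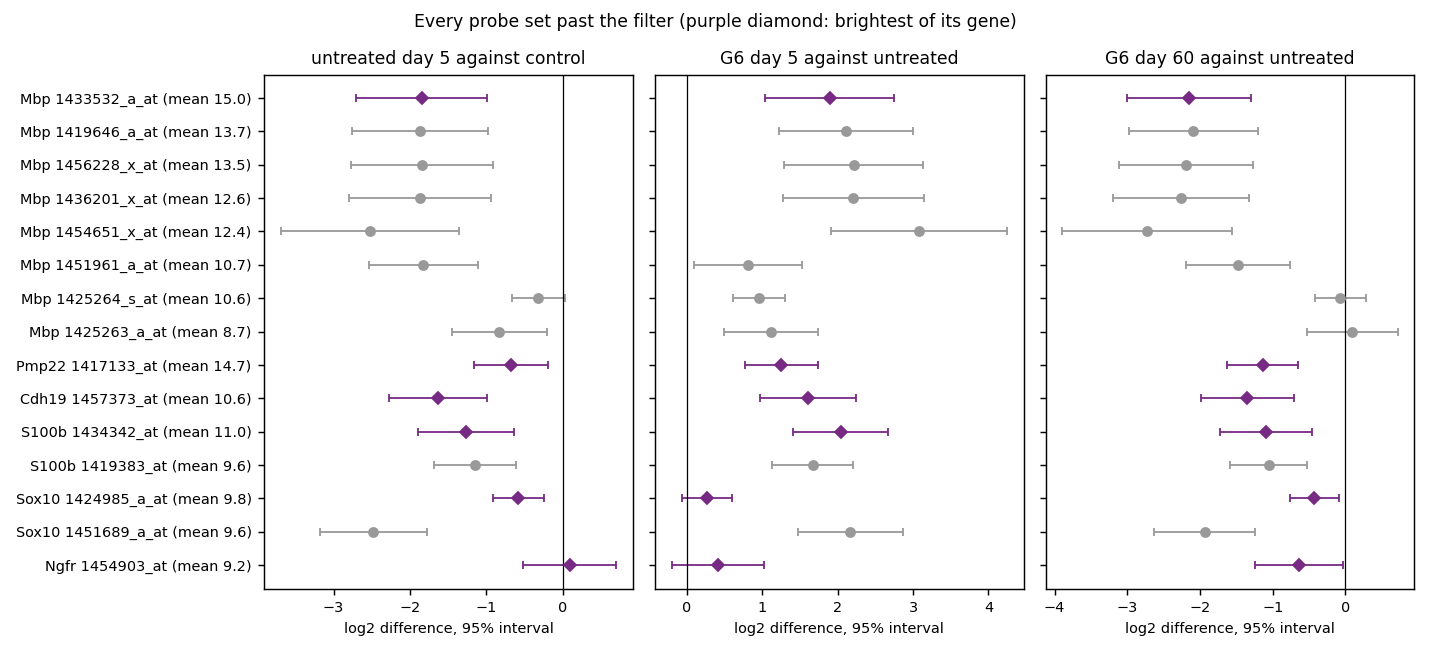
Difference in log2(signal + 16) for the 15 member probe sets past the filter in untreated tissue at day 5 against control and in G6 tissue at days 5 and 60 against untreated tissue of the day, with 95% intervals and a diamond for the brightest set of each gene. The Sox10 sets stand at 2.17 and 0.27 with G6 at day 5, and 2 Mbp sets lie at 0.09 and -0.07 with G6 at day 60.

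The list counts from here on stand beside these shares of all genes called. In untreated tissue against control they were 52.8% at day 5, 41.1% at day 20 and 35.6% at day 60. Against untreated tissue of days 5, 20 and 60 they were 31.7%, 9.98% and 11.9% with G6 and 11.8%, 7.69% and 11.6% with DC101. Other genes of peripheral myelin were taken from a list of 22, of which 18 were tested. At day 5, 3 were higher and 5 lower in untreated tissue than in control tissue, with a median of -0.53 against 0.05 over all genes, where 24.9% of all genes were lower. The lower ones included Pllp at -1.65 (SE 0.39, adjusted p = 0.00022392), a myelin tetraspan protein, Ncmap at -1.64 (SE 0.35, adjusted p = 4.9223e-05), a non-compact myelin protein, and Mal at -1.53 (SE 0.40, adjusted p = 0.00091753), a proteolipid of myelin and epithelia. Egr2, the transcription factor that drives myelination and is also expressed in hair follicles and fibroblasts, was 0.61 higher (adjusted p = 0.030423). Fa2h, which makes hydroxylated myelin lipids and is also active in sebaceous glands, was 0.94 higher (adjusted p = 0.0057991).

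Of the 18 myelin genes, 10 were higher and 1 lower with G6 at day 5 than in untreated tissue, with a median of 0.77 against 0.01. Pllp rose by 1.95 (adjusted p = 6.507e-05), Ncmap by 1.92 (adjusted p = 1.3622e-05) and Ugt8a, the enzyme that makes the myelin lipid galactosylceramide, by 1.88 (adjusted p = 0.00050878). Cnp, a myelin enzyme, rose by 1.31 (adjusted p = 0.0002248). DC101 at day 5 had 1 of 18 higher and none lower, Ncmap at 1.45 (adjusted p = 0.00298), with a median of 0.32 against -0.02. G6 against DC101 at day 60 had 12 of the 18 lower, where 21.9% of all genes were lower and where no member was called with RNA ratios as covariates.

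By day 60, 9 of the 18 were lower and none higher with G6 than in untreated tissue, with a median of -0.80 against -0.02. Pmp2, a fatty acid carrier of peripheral myelin, had 4.76 to 7.19 in G6 tissue at day 60, against 7.17 to 10.86 in untreated tissue, and fell by 3.49 (SE 0.67, adjusted p = 0.00032446). None of the 8 G6 arrays had Pmp2 above 331 and 7 of 8 untreated arrays did, so the size of that fall depends on signals near background. Ugt8a fell by 2.24 (adjusted p = 0.00034531), Mal by 1.80 (adjusted p = 0.0018028) and Cnp by 1.38 (adjusted p = 0.00078709). Dhh, a hedgehog signal from Schwann cells to the perineurium, fell by 1.17 (adjusted p = 0.00016172).

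Of 16 listed genes of the wider Schwann cell lineage, 15 were tested. In untreated tissue at day 5, 1 was higher and 6 lower than in control tissue, with a median of -0.17, where 24.9% of all genes were lower. Plekhb1 fell by 2.66 (adjusted p = 9.4063e-10), the sodium channel gene Scn7a by 1.46 (adjusted p = 8.9831e-06) and the transcription factor gene Sox2 by 1.38 (adjusted p = 0.00028364). Sox2 was above 331 on no untreated array at day 5 and on 1 of 8 control arrays. Ncam1, an adhesion molecule of non-myelinating Schwann cells, nerve and muscle, was the gene that was higher, by 0.93 (adjusted p = 6.2165e-05).

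G6 at day 5 had 10 of the 15 lineage genes higher and none lower than untreated tissue, with a median of 1.14. Sox2 rose by 1.93 (adjusted p = 4.783e-06), the adhesion gene Chl1 by 1.76 (adjusted p = 0.00014529), Plekhb1 by 1.73 (adjusted p = 6.507e-05) and Foxd3, a neural crest transcription factor, by 1.54 (adjusted p = 0.00010383). Lgi4, a secreted protein that Schwann cells need to myelinate, rose by 1.17 with G6 (adjusted p = 4.2908e-06) and by 0.57 with DC101 (adjusted p = 0.049023). DC101 at day 5 had 3 of 15 higher, Plekhb1 at 1.08 (adjusted p = 0.029755), Scn7a at 0.83 (adjusted p = 0.039088) and Lgi4. For G6 at day 60, 3 of 15 were lower, Foxd3 at -1.39 (adjusted p = 0.002158), Plekhb1 at -1.19 and Scn7a at -0.89, and the median was -0.12.

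At the other days fewer of these genes were called, and 41.1% of all genes at day 20 and 35.6% at day 60 were called in untreated tissue against control. In untreated tissue against control, 3 myelin genes were higher and none lower at each of days 20 and 60, among them Pmp2 (1.66, adjusted p = 0.039238, at day 20 and 1.94, adjusted p = 0.017948, at day 60), with medians of 0.03 and 0.15. Of the lineage genes 1 was lower at day 20, Plekhb1 at -1.13, and 4 were higher at day 60, among them Fabp7, a fatty acid carrier of immature glia, at 1.37 (adjusted p = 0.00017291) and Chl1 at 1.02. G6 at day 20 had 1 myelin gene lower, Sh3tc2 at -1.19, and 2 lineage genes higher, Pou3f1 at 1.21 and the neuregulin receptor gene Erbb3 at 0.94. In the same comparison 2 of 11 basal keratinocyte and hair genes were higher, Krt5 at 1.26 and Krt14 at 1.19, with a median of 1.19. The part of epidermal content in the lineage calls was not tested. DC101 had no myelin or lineage gene called at day 20, and at day 60 it had 2 myelin genes higher, Drp2 at 0.62 and Fgd4 at 0.54, with a median of 0.46.

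**Figure D4:**
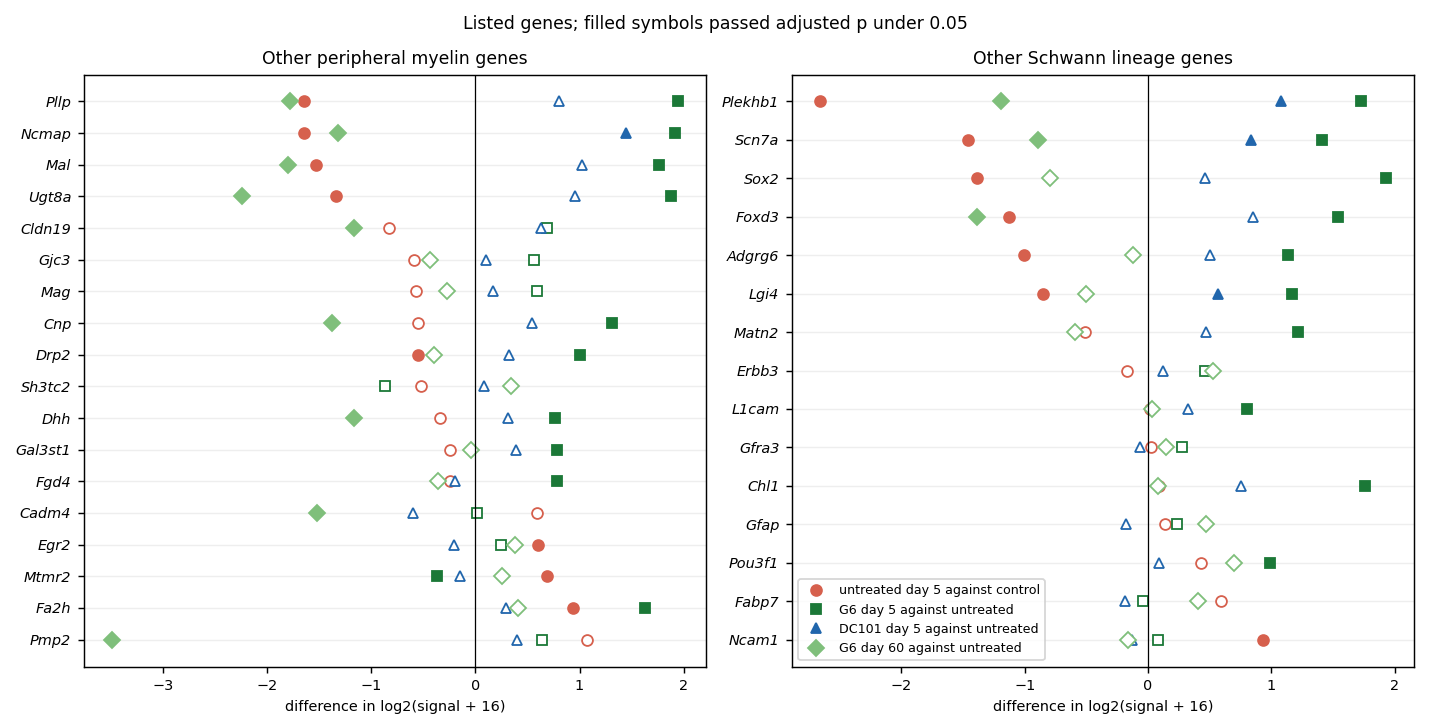
Difference in log2(signal + 16) for 18 other myelin genes and 15 other Schwann lineage genes in 4 comparisons, with filled points where the adjusted p is under 0.05. With G6 at day 5, 10 myelin and 10 lineage genes are filled on the positive side, and with G6 at day 60, 9 and 3 are filled on the negative side.

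The repair programme of injured Schwann cells was represented by 7 tested genes of 11 listed. In untreated tissue at day 5, Gap43, a growth-associated protein of regrowing axons and repair Schwann cells, rose by 2.49 (adjusted p = 1.1049e-08), with 9.44 to 10.37 against 4.81 to 8.43 in control tissue. The groups did not overlap, and no control array had Gap43 above 331. Jun, the transcription factor that drives the repair state and acts in most other cells too, fell by 0.60 (adjusted p = 0.00079758), so 1 of 7 was higher and 1 lower. Gap43 fell by 1.24 with G6 (adjusted p = 0.004978) and by 1.25 with DC101 (adjusted p = 0.013012) at day 5, and the growth factor gene Fgf5, of hair follicles as well, fell by 2.49 with G6. These antibody comparisons had 2 of 7 lower and none higher each, and at day 20 each had 1 of 7 lower, Gap43 at -1.3 with G6 and -1.53 with DC101.

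Axonal and neuronal genes had 5 tested of 11 listed, the 3 neurofilament genes Nefl, Nefm and Nefh having failed the filter. In untreated tissue at day 5, Stmn2 (0.98, adjusted p = 0.0042591) and Tac1 (0.96, adjusted p = 0.015006) were higher than in control tissue, and none was lower. Tubb3 (-1.34) and Tac1 (-1.26) were lower with G6 at day 5 than in untreated tissue, and Tac1 was lower with DC101 too (-0.99, adjusted p = 0.046001). Uchl1, a neuronal ubiquitin hydrolase, was 0.67 higher in untreated tissue at day 20 than in control, and against untreated tissue it was lower at day 20 with G6 (-1.0) and DC101 (-1.16) and at day 60 with G6 (-1.40, adjusted p = 0.00046963).

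Sheath genes of perineurium and endoneurium had 6 tested of 8 listed. Osr2, a transcription factor of endoneurial and other connective tissue, ranged from 4.43 to 8.32 in untreated tissue at day 5, against 9.14 to 10.64 in control tissue, and fell by 3.09 (adjusted p = 2.9986e-07). No untreated array of day 5 had Osr2 above 331. It rose by 2.06 with G6 (adjusted p = 0.0010029) and by 1.79 with DC101 (adjusted p = 0.012031) at day 5, and fell by 1.43 with G6 at day 60. Itgb4, an integrin of perineurium and epidermis, was at -0.66 in untreated tissue at day 5 against control, at 1.17 with G6 and at 0.51 with DC101 at day 5, all called. Counts were 0 higher and 2 lower in untreated tissue at day 5 against control, 4 and 0 with G6 at day 5, 2 and 0 with DC101 at day 5, and 0 and 2 with G6 at day 60. They were 3 and 0 with G6 at day 20 (Cldn1 at 1.17, Slc2a1 at 0.72 and Itgb4 at 0.55), where no member was called. In untreated tissue against control they were 0 and 0 at day 20 and 2 and 0 at day 60. With DC101 they were 0 and 0 at day 20 and 1 and 0 at day 60.

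Melanocytes share Sox10, S100b and neural crest origin with Schwann cells, and 10 of their genes were tested. At day 5, 1 was higher and none lower in untreated than in control tissue, Ednrb at 1.65 (adjusted p = 7.369e-08), a receptor that blood vessels also carry. G6 at day 5 had 3 lower and none higher than untreated tissue, Ednrb at -1.36, Gpnmb at -0.92 and Kit at -0.79, which are genes of other cells as well, and with G6 at day 60 none was called. DC101 at day 60 had 2 lower than untreated tissue, the pigment enzyme gene Tyrp1 at -2.11 and Slc45a2 at -0.79. The mean melanocyte level per array ran from 10.36 to 11.74 in G6 tissue at day 5, from 11.16 to 12.18 in untreated tissue at day 5 and from 10.38 to 12.54 in control tissue. Over 78 arrays this mean had r = 0.156 with the brightest Sox10 set and 0.0173 with Mbp.

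Genes of skeletal muscle moved in several of the same comparisons. At day 5, 15 of 16 were lower in untreated than in control tissue and none higher, with a median of -2.08 led by Ampd1 at -3.74 and Casq1 at -2.77, and the mean muscle level ran from 13.22 to 14.27 against 15.25 to 16.57. Of the 16 muscle genes, 10 were higher with G6 at day 5 than in untreated tissue, with a median of 1.23 and a range of 14.34 to 15.59. DC101 at day 5 had 1 of 16 higher, with a median of 1.05 and a range of 13.82 to 15.09. At day 60, 1 of 16 was lower with G6 than in untreated tissue, with a median of -1.06, and the level ran from 10.31 to 15.35 in G6 tissue and from 11.39 to 15.51 in untreated tissue. G6 against DC101 at day 60 had 15 of 16 lower, against 21.9% of all genes. The part of muscle content in the members' differences was not tested.

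Muscle and Mbp levels were set side by side on single arrays. Array 79 of untreated tissue at day 60 had a muscle level of 11.39 and Mbp at 15.56, near its group's mean of 15.59. Array 88 of G6 tissue at day 60 had the highest muscle level of its group, 15.35, with Mbp at 13.73. Arrays 86 and 87 were lowest in both, with Mbp at 10.12 and 11.40. Within groups, as deviations from the group mean over the 78 arrays, Mbp had r = 0.647 with the muscle mean, Sox10 0.538, Cdh19 0.416, Pmp22 0.41, Ngfr 0.146 and S100b -0.0311.

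Lists of other cell types gave the counts below, beside 52.8% of all genes called and 24.9% lower in untreated tissue at day 5 against control, 31.7% called and 16.7% higher with G6 at day 5, 11.8% called with DC101 at day 5, and 11.9% called and 9.26% lower with G6 at day 60. Of 12 fibroblast genes, 3 were higher and 5 lower in untreated tissue at day 5 than in control tissue, 5 were higher with G6 and 4 with DC101 at day 5, and 7 were lower with G6 at day 60, where their mean level ran from 13.01 to 14.18 in G6 tissue and from 14.05 to 14.66 in untreated tissue. Of 10 adipocyte genes, which share S100b with Schwann cells, 8 were lower in untreated tissue at day 5 than in control tissue, and 1 was higher and 1 lower with G6 at day 5. Of 12 endothelial genes, 11 were higher and 1 lower in untreated tissue at day 5, and 11 were lower with G6 at day 5. Of 12 macrophage genes, 11 were higher in untreated tissue at day 5, and 7 were lower with G6 at day 60. The part of any of these in the members' differences was not tested.

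Across the 78 arrays, as a description of libraries that share groups and tissue makeup, Mbp, Pmp22 and Cdh19 ran together, with r of 0.868 for Mbp and Pmp22, 0.83 for Mbp and Cdh19 and 0.851 for Pmp22 and Cdh19. As deviations within groups these were 0.791, 0.798 and 0.855. S100b ran with Pmp22 (r = 0.8) more than with Mbp (0.57, and 0.29 within groups). Ngfr had r of 0.216 to 0.392 with the other 5 members. S100b and the brightest Sox10 set had r = 0.174.

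The genes whose levels ran most like each member's were named by Pearson's r over the 78 arrays among all genes tested. For Mbp they were Ugt8a (0.948), Mal (0.942), Plekha4 (0.919) and Ncmap (0.901), and Ugt8a and Mal were again first within groups (0.925 and 0.909). For Pmp22 they were Mal (0.926), Sbspon (0.918) and Ugt8a (0.915). For Cdh19 they were the potassium channel gene Kcna2 (0.928), Scn7a (0.909) and Plekha4 (0.9). For S100b they were Gpm6b (0.92), a proteolipid of neural membranes, Abi3bp (0.869) and Lgi4 (0.834).

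The brightest Sox10 set ran most like Actn3 (0.67), Pomgnt2 (0.668) and Ttn (0.668) over arrays, of which Actn3 and Ttn encode muscle proteins, and within groups most like Gprc5b (0.591), Cxxc5 (0.588) and Cadm4 (0.586), and it had r = 0.656 with the mean of the muscle list. Ngfr ran most like Plod2 (0.601), a collagen-modifying enzyme. Against the mean of the 18 other myelin genes, r was 0.892 for Mbp, 0.922 for Pmp22 and 0.811 for Cdh19, and within groups it was 0.865, 0.898 and 0.891. S100b had r = 0.806 with the mean of the 15 other Schwann lineage genes and 0.656 within groups, and Pmp22 had 0.744 and 0.689. With the mean of the 12 fibroblast genes S100b had r = 0.722 and 0.659 within groups, and Pmp22 had 0.799 and 0.703. For the other members r with the fibroblast mean was 0.588 for Mbp, 0.576 for Cdh19, 0.343 for Ngfr and 0.172 for Sox10.

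**Figure D5:**
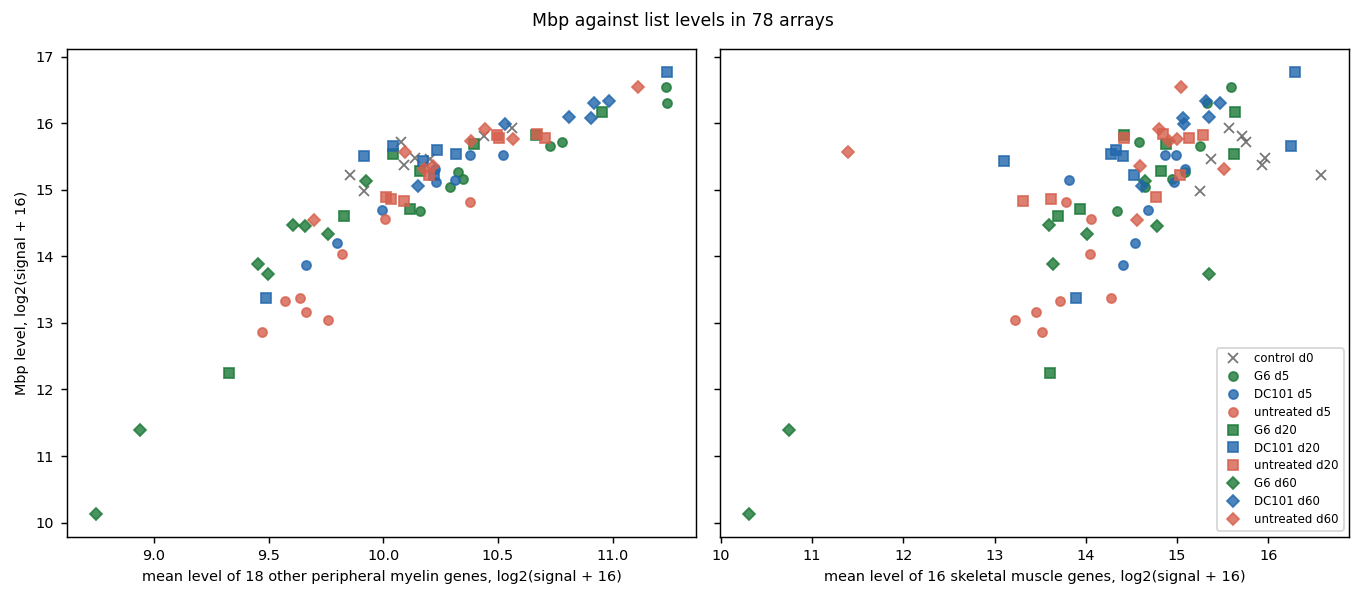
Mbp level on each of the 78 arrays against the mean level of 18 other myelin genes and against the mean of 16 skeletal muscle genes, all as log2(signal + 16), with colours for treatment and shapes for day. Mbp follows the myelin mean with r = 0.892 and the muscle mean with r = 0.721.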

How the data were processed

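RNA of flank tissue was hybridised to 78 Affymetrix Mouse Genome 430 2.0 arrays, 1 per sample. The deposited values are linear signal intensities made by the authors with MAS5 in GCOS 1.3, per the submitters' processing notes, and ranged from 0.15 to 186384.77. They were used as log2(signal + 16) without further normalization. Of 45101 probe sets, 34958 carry 1 symbol in the platform annotation, 932 several and 9211 none. A probe set was kept where 6 or more arrays had signal over 331, which is the 40th percentile of the deposited values (26696 sets), and the brightest per gene gave 14718 genes.

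One model over the 10 groups was fitted with limma 3.58.1 in R 4.3.3 (eBayes with a trend), and p-values were adjusted by Benjamini-Hochberg over all genes, with calls at 0.05, for 24 comparisons and 4 interactions. The package data.table, version 1.17.8, read the files. Running numbers are not shared between groups, and each group is a block of consecutive numbers. Day 5 holds 1 to 24, day 20 holds 49 to 72, day 60 holds 73 to 94 and control holds 95 to 102. Differences between groups thus cannot be told apart from any effect of array order. On simulated data with 100 genes changed by 1 and 100 by 2 log2 units in untreated day 5 tissue against control, 81% and 99% were recovered, and of 187 genes called 7 had not been changed. The simulated noise was independent between genes and between arrays. These figures thus do not cover genes that move together or several arrays from 1 animal.

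Members and lists were chosen with earlier results of these data known. A rule on size took, per comparison, the 3 genes of a nerve or melanocyte list and the 2 of any other list with the largest called difference, and the text names part of them. Cnp, Dhh, Egr2 and Ncam1, and Foxd3, Lgi4 and Fa2h at day 5 beyond the rule, were chosen after their values were seen. Genes most like a member were ranked by Pearson's r. Alternatives were quantile normalization, other pseudocounts and filters, the mean of probe sets, RNA ratios as covariates, the compared groups alone, array weights, neighbouring array numbers averaged in pairs, arrays 13 and 14, 51 and 52, 77 or 79 left out, and each array left out. Arrays 86 and 87 were left out after seeing the data, and 4 of these settings were also applied then to the comparisons beyond the 9 of untreated with control and antibody with untreated. Prx and some other listed genes were not analysed here. Gjb1, Gdnf, Artn, Olig1, Nefl, Nefm, Nefh, Snap25 and Scn9a failed the filter. Of 11 basal keratinocyte and hair genes, 4 were higher in untreated tissue at day 5 than in control tissue. Promoters are from RefSeq (GRCm38.p6), where S100b, Pmp22, Ngfr and Prx matched.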

Additional observations from a re-analysis of the deposited data

Results flagged for a closer look

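The effect of G6 against untreated tissue differed between day 20 and day 5 in 4 members, by a test of the difference itself. The value at day 20 minus that at day 5 was -2.27 for Mbp, -1.76 for S100b, -1.66 for Cdh19 and -1.40 for Pmp22, with untreated tissue of day 5 as the low arm of the contrast.

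Of 60 sets of a member's values in a group, 5 had 1 array far from the rest by Dixon's criterion, or 8.33%, where chance gives about 1 in 20. Array 63 of G6 at day 20 had Mbp at 12.25 in a group with a median of 15.40, and its Pmp22 (13.40) and Cdh19 (9.45) were the lowest of the group too. Array 71 of DC101 at day 20 had Mbp at 13.38 against a median of 15.52. Array 93 of DC101 at day 60 was low in Mbp (15.06) and in Pmp22 (14.37). It was also the lowest of its group's 6 arrays in Sox10 (9.89), S100b (11.06), Ngfr (8.53) and Cdh19 (10.69), without meeting the criterion there. Array 100 of control had Ngfr at 7.72 against a median of 9.42.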

How the results depend on the processing

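The number of arrays limits the precision here, and so does signal near background for Ngfr and the dimmer Sox10 set. Of the members' values in 9 comparisons under each alternative, leaving aside fits without each array in turn, 583 kept their side of the threshold, 7 gained a call and 16 lost one, and none changed direction while called. The count of members called with DC101 at day 5 against untreated tissue, 4 as reported, was 1 with RNA ratios as covariates, 1 with neighbouring arrays averaged, and 1 to 4 with each array left out in turn. With G6 at day 60 against untreated tissue it was 1 in a fit of these groups alone and 0 with RNA ratios. In untreated tissue against control it was 1 at day 20 with quantile normalization (Sox10 at -0.41, adjusted p = 0.037091) and 3 at day 60 with RNA ratios (Cdh19 1.05, Pmp22 0.88, S100b 1.21). Leaving out array 83 or 80 ended the S100b call with G6 at day 60 (adjusted p up to 0.05906), and leaving out array 82, 85 or 79 gave a Sox10 call there (adjusted p down to 0.03037). The Mbp difference ranged from -2.39 to -1.68 over those fits. The causes of these changes were not tested. No paired analysis was possible because the groups share no array numbers.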
